A study of Bos taurus with 8 samples.

Results

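FAPs were the 4879 cells that the deposited annotation calls fibro-adipogenic progenitors (FAPs) in the cultures of donors 4, 7 and 8 at passages 5 and 8, out of 36129 cells in the whole data set. The deposited cell table gave the type, the donor and the passage of every cell. The type label was itself assigned from expression, so the FAP markers of these cells are a description, whereas the passages compared were set by the libraries. Donors 4 and 7 were female calves and donor 8 was a male adult, all Belgian Blue cattle, and cells came from the semitendinosus muscle. After a short serum-free culture of the whole muscle digest, FAPs were purified by fluorescence-activated sorting with antibodies to JAM-1, CD45, ITGA7 and ITGA5, and were then grown on collagen I in serum-free growth medium and split at confluency. FAPs of 3 unsorted cultures (female donors 1, 2 and 9, 1 of them a calf) and of 3 cultures sorted for satellite cells (SCs; donors 5 and 10, a female and a male calf, and donor 6, a male adult) in the same libraries served for comparison, 2917 and 1639 cells. Every animal gave 1 culture, and the labels name no further treatment. Each passage was 1 pooled droplet 3′ library holding all donors, so passage and library cannot be told apart, and time in culture cannot be told apart from the state of the dish on the day of harvest.

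FAPs are the mesenchymal cells of the muscle interstitium. They lay down collagen and other matrix proteins, can become adipocytes or contractile myofibroblasts, and are marked by the receptor PDGFRA. On repeated passage, fibroblasts as a class can slow down, stop dividing and secrete cytokines, or take on contractile proteins of the actin family on stiff plastic.

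At passage 5 the 3 donors gave 1345, 1172 and 1437 FAPs, and at passage 8 they gave 314, 301 and 310. The summed unique molecular identifiers (UMIs, each 1 captured transcript) came to 30877722, 24225286 and 26888881 at passage 5 and to 6132833, 4942230 and 4542675 at passage 8, so the values of passage 8 rest on fewer counts. Median UMIs per cell were lower in every donor, at 19772, 16005 and 13797.5 against 22349, 20259 and 18462. No cell barcode was shared between the FAPs of the 2 libraries. The libraries differed in quality: by genotype, 19.1% of 14498 barcodes were called doublets of 2 donors at passage 5 and 45.9% of 8579 at passage 8, with 76.8% and 34.2% called single (at passage 2, 19.6% and 77.5%). Only single calls entered the deposited table, doublets within 1 donor cannot be seen this way, and the part of doublets or free RNA in the results below was not tested. Between 98.0% and 99.7% of the cells of these donors carried the FAP label; the others, 3 to 10 cells per donor and passage, were labelled SCs. The 7 FAP markers PDGFRA, DCN, LUM, ITGA5, DPT, MFAP5 and CCDC80 summed to between 17400 and 21200 CPM (counts-per-million units, here relative to all UMIs of the sum) at passage 5 and to 8720, 16700 and 21400 at passage 8 in donors 4, 7 and 8. The 8 SC markers summed to at most 21.9 CPM, and PAX7, the defining transcription factor of SCs, had 2 UMIs over all 6 sums. Of 7 endothelial markers the total was 5.72 to 17.2 CPM and lay almost wholly in VWF. Of 5 mural markers the total was 17.1 to 34.3 CPM at passage 5 and 39 to 180 at passage 8, nearly all of the difference being CNN1. Of these mural markers RGS5 and MCAM had no UMI in any sum, while NOTCH3 had 290 to 436 UMIs at passage 5 and 41 to 61 at passage 8, and MYH11 0 to 13. Of 5 monocyte and macrophage markers the total was 13.9 to 17.7 CPM at passage 5 and 17 to 17.8 at passage 8, nearly all of it CD14, with 72 to 507 UMIs per sum; CD68 had 5 to 39 UMIs, CSF1R 0 to 12, and PTPRC and TYROBP none. The glial marker S100B stood at 7.21 to 16.9 CPM and then at 8.37 to 12.4 CPM, and SOX10 had no UMI. The monocyte, macrophage and glial values are of the same order as the totals of the SC and endothelial markers, whereas the mural total at passage 8 lay above them. The source of these transcripts was not tested.

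UMIs were summed per donor and passage, giving 6 sums compared within donor (3 against 3), and levels from here on are CPM after scaling by TMM factors, which correct for the make-up of each sum. Fold changes are log2 of passage 8 over passage 5 from edgeR, with a standard error (SE). A gene passed the test at an adjusted p below 0.05 and was called when its log2 fold change also exceeded 1 in size. Of 11270 genes tested, 344 were called higher at passage 8 (3.05%) and 121 lower (1.07%), together 4.13%. Without the size limit, 1208 genes (10.7%) passed as higher and 966 (8.57%) as lower. The CPM of the 3 donors did not overlap between passages for 3404 genes (30.2%). A change in a sum can come from more cells with the transcript or from more of it per cell. Shares of cells are given below for ACTA2, CNN1, CCL26, PDGFRA, MFAP5, TOP2A, FOS and CYP27B1 and for the cell cycle lists. Among fits without 1 donor, that without donor 7 gave the fewest calls, 85 genes higher and 19 lower. In it, 37 of the 147 genes selected for naming that passed with all donors still passed. Fold changes did not shrink throughout in that fit. On the log2 scale LUM stood at -0.92 against -0.81 with all donors, ITGA7 at -1.62 against -1.5, MFAP5 at 1.31 against 1.34 and CD55 at -0.35 against -0.45. Why fewer genes passed was not tested. In a fit that ignored the pairing of passages by donor, 24 genes were called higher and 13 lower. Scaling by total UMIs alone in place of TMM moved all passage changes up by 0.11 on the log2 scale. The largest lists of changes below were also counted without donor 7. In that fit 13 genes of G2 and mitosis, 1 of S phase, 5 contractile, 5 early response and 6 mitochondrially encoded genes passed. No gene of the cytosolic ribosomal, ribosome biogenesis, interstitial collagen, basement membrane or amino acid stress lists did. The share of all genes that passed without donor 7 was not counted, so these list counts have no share over all genes beside them.

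Among called genes that averaged at least 10 CPM at either passage, the 12 strongest rises included the contractile genes CNN1 and ACTG2 and the cytokines CCL26 and IL36A, and the 12 strongest falls included a vitamin D enzyme and an IGF binding protein. CNN1, the smooth muscle actin-binding protein calponin, stood at 20.6, 5.18 and 4.47 CPM in donors 4, 7 and 8 at passage 5 and at 159, 53.2 and 23.4 CPM at passage 8 (log2 fold change 2.93 ± 0.17; adjusted p = 0.000238). Every donor rose, and the lowest passage 8 value lay above the highest passage 5 value. CCL26, a chemokine that attracts eosinophils, went from 100.8, 40.9 and 22.9 CPM to 684, 249 and 178 CPM (log2 fold change 2.77 ± 0.09; adjusted p = 5.41e-06), again without overlap. LIMS2, an adaptor of integrin adhesions, rose from 3.605, 4.75 and 2.93 CPM to 24.9, 25.6 and 16.5 CPM (log2 fold change 2.58 ± 0.14), and its donors were alike at both passages. CAVIN2, a coat protein of caveolae, rose from 5.28, 1.48 and 3.47 CPM to 38.6, 6.55 and 11.6 CPM (log2 fold change 2.36 ± 0.24), most in donor 4. WFDC2, a secreted protein with a whey acidic protein fold, rose from 1.90, 0.523 and 2.27 CPM to 9.87, 3.97 and 18.5 CPM (log2 fold change 2.74 ± 0.22), and IL36A, a cytokine of the interleukin-1 family, from 2.84, 1.74 and 1.00 CPM to 20.6, 8.73 and 3.01 CPM (log2 fold change 2.44 ± 0.25). IL36A did not pass with the spread shared over 9 donors (edgeR adjusted p = 0.0667) or without the pairing by donor (0.103). ITGA6, a laminin-binding integrin chain, rose from 2.77, 5.79 and 2.93 CPM to 25.5, 15.1 and 8.37 CPM (log2 fold change 2.10 ± 0.44; adjusted p = 0.0409), though its call was lost without donor 7 and without donor 8. The 12 rises also held ACTG2, FOS and NR4A1, described with their groups, and PIMREG (log2 2.20) and the histone gene H2AC12 (log2 2.11), which are transcribed in dividing cells; H2AC12 has near-identical paralogs, its count may be shared among them, and it missed the threshold under 6 of 14 alternative settings.

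**Figure D1:**
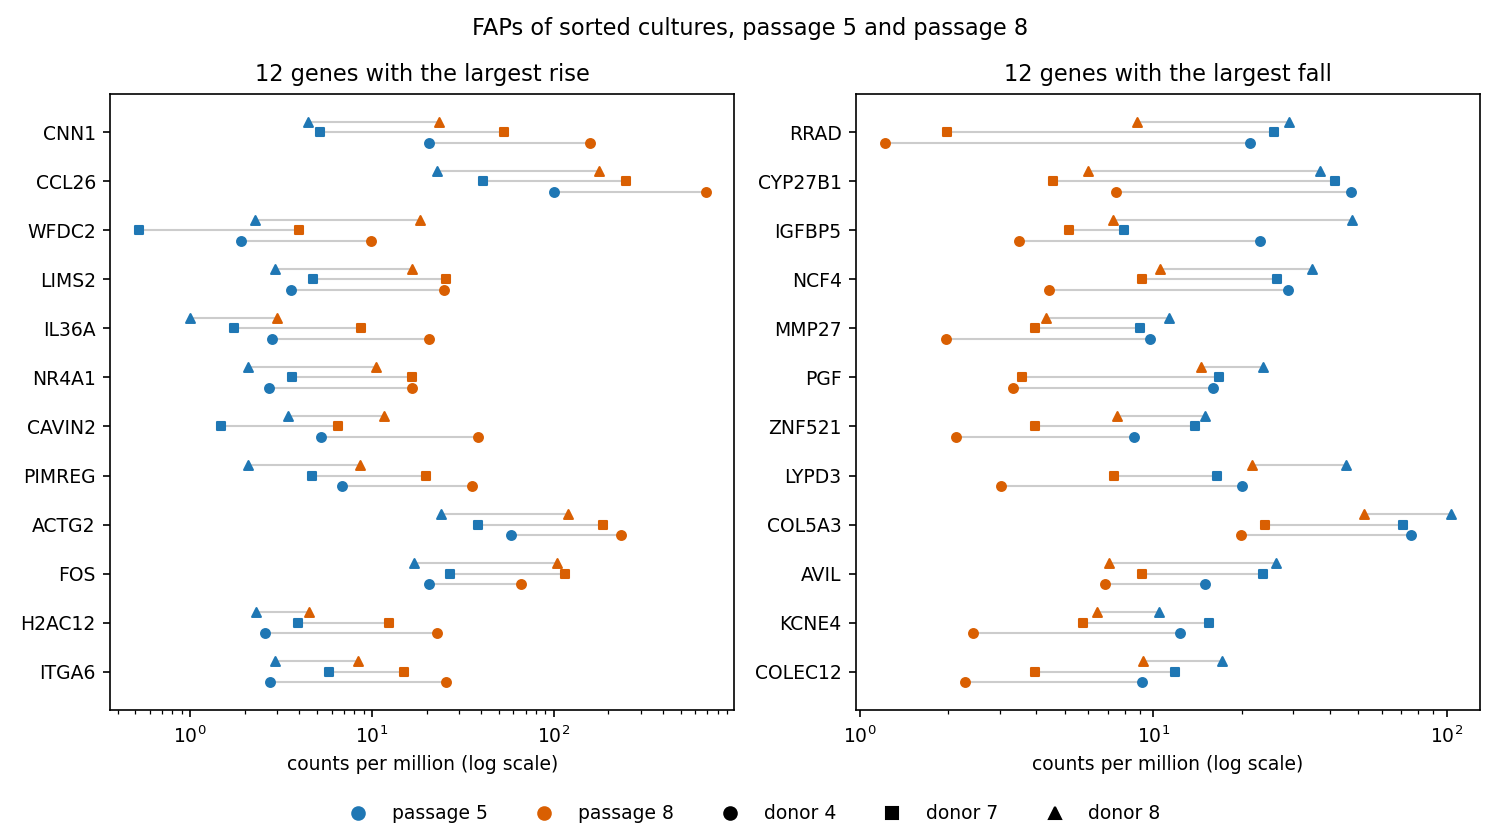
CPM on a log axis of the 12 genes with the largest rise and the 12 with the largest fall, with 1 symbol per donor and a grey line joining passage 5 (blue) to passage 8 (orange). The genes were picked among called genes that averaged at least 10 CPM at either passage and moved the same way in all donors. All 3 lines of a gene run the same way; CNN1 rose from between 4.47 and 20.6 CPM to between 23.4 and 159 CPM, and CYP27B1 fell from between 37.1 and 47.2 CPM to between 4.56 and 7.44 CPM.

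CYP27B1, the enzyme that makes the active form of vitamin D, fell from 47.2, 41.7 and 37.1 CPM to 7.44, 4.56 and 6.01 CPM (log2 fold change -2.80 ± 0.14; adjusted p = 2.81e-05), with donors close together at each passage. RRAD, a small GTPase that inhibits calcium channels, fell from 21.4, 25.8 and 29.0 CPM to 1.21, 1.98 and 8.80 CPM (log2 fold change -2.82 ± 0.49; adjusted p = 0.0329), least in donor 8. IGFBP5, a binding protein of insulin-like growth factors, stood at 23.1, 7.93 and 47.5 CPM and then at 3.49, 5.16 and 7.30 CPM (log2 fold change -2.18 ± 0.46; adjusted p = 0.048); donor 7 started low and moved little, and the call was lost without donor 4 and without donor 8. NCF4, a subunit of the phagocyte NADPH oxidase, fell from 28.8, 26.5 and 34.8 CPM to 4.40, 9.12 and 10.5 CPM (log2 fold change -1.96 ± 0.21). The matrix protease MMP27 fell from 9.71, 9.02 and 11.3 CPM to 1.97, 3.97 and 4.29 CPM and the growth factor PGF from 16.0, 16.7 and 23.6 CPM to 3.34, 3.57 and 14.6 CPM. ZNF521, a zinc finger regulator of mesenchymal progenitors, fell from 8.58, 13.9 and 15 CPM to 2.12, 3.97 and 7.51 CPM (log2 fold change -1.53 ± 0.22). COL5A3, a fibrillar collagen chain, fell from 75.8, 70.9 and 104 CPM to 19.9, 24.0 and 52.2 CPM (log2 fold change -1.47 ± 0.18), and the actin-binding protein gene AVIL from 15.1, 23.7 and 26.3 CPM to 6.83, 9.12 and 7.08 CPM (log2 fold change -1.46 ± 0.16). LYPD3, KCNE4 and COLEC12 completed the 12, with log2 changes of -1.502, -1.45 and -1.40. Of these 12 falls, RRAD, MMP27, PGF, ZNF521, LYPD3, COL5A3, AVIL, KCNE4 and COLEC12 did not pass without donor 7, whereas CYP27B1, IGFBP5 and NCF4 did.

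Most contractile genes tested were higher at passage 8. For comparison, 10.7% of all genes tested passed as higher and 8.57% as lower. Of 23 contractile and myofibroblast genes tested, 15 passed as higher, 5 of them called, and none passed as lower, with a list median of 0.48 on the log2 scale against -0.01 over all genes tested. ACTA2, the α-smooth muscle actin that defines myofibroblasts, stood at 463, 216 and 254 CPM at passage 5 and at 1302, 923 and 486 CPM at passage 8 (log2 fold change 1.51 ± 0.26, edgeR adjusted p = 0.0374). Each donor rose, but ACTA2 missed the threshold under 4 of 14 alternative settings. These were leaving out donor 4, G1 cells alone, no filter on low counts and no pairing by donor. ACTG2, the enteric smooth muscle actin, rose from 58.3, 38.2 and 23.9 CPM to 234, 186 and 119 CPM (log2 fold change 2.20 ± 0.09; adjusted p = 1.79e-05). TAGLN, another calponin-family protein, rose from 35.9, 19.2 and 22.9 CPM to 97.0, 81.7 and 49.8 CPM (log2 fold change 1.55 ± 0.19). The summed level of the list went from 10380, 8480 and 7984 CPM to 14340, 13410 and 10500 CPM. In FAPs thinned to 5000 UMIs each, the share with a UMI of ACTA2 was 61.7%, 39.3% and 43.0% at passage 5 and 92.4%, 83.4% and 59.3% at passage 8. For CNN1 those shares were 7.06%, 1.37% and 2.03% and then 45.4%, 20.5% and 9.18%. SCs of the SC cultures, thinned alike, gave 80.3% and then 78.9% for ACTA2 and 6.34% and then 24.6% for CNN1. At passage 8 only 57 SCs were thinned, with a 95% Wilson interval for CNN1 of 15.2% to 37.1%. The FAP shares of CNN1 in donors 7 and 8 were not above those of SCs at passage 8, but were below them at passage 5 too. SCs thus give no background share for CNN1, and the comparison cannot decide whether more FAPs of these donors expressed it. SCs had ACTA2 UMIs in most of their cells, so they give no background share for ACTA2 and the comparison cannot decide for that gene. Within FAPs the 95% Wilson intervals for ACTA2 did not overlap between passages in any donor. At passage 5 they were 59.08% to 64.27%, 36.56% to 42.15% and 40.48% to 45.61% in donors 4, 7 and 8. At passage 8 they were 88.82% to 94.95%, 78.62% to 87.27% and 53.75% to 64.71%. For CNN1 the FAP intervals did not overlap between passages within a donor either. They were 5.81% to 8.56%, 0.84% to 2.21% and 1.42% to 2.90% at passage 5. At passage 8 those of CNN1 were 39.7% to 51.1%, 16.2% to 25.6% and 6.43% to 12.95%. The intervals cover counting error only, and the part of free RNA in the rise was not tested. Mural cells use CNN1 and ACTA2 too. Of 10 mural and smooth muscle genes 5 were tested, of which CNN1 and ACTG2 passed as higher and NOTCH3 as lower (-0.53 on the log2 scale). NOTCH3 missed the threshold under 9 of 14 alternative settings, DESeq2 and leaving out donor 4 or donor 7 among them; whether such cells were the source of the transcripts was not tested. When only cells called G1 were summed, 15 of the 23 genes passed as higher, but ACTA2 did not.

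Among related groups, 4 of 17 YAP and TEAD targets passed as higher (23.5%) and 1 as lower (5.88%), with a median of 0.22. Shares over all genes tested were 10.7% and 8.57%. CCN2 and CCN1, matricellular targets of that pathway, rose by 0.93 and 0.52. Of 31 genes of the TGF-beta and BMP pathway, 9 passed as higher (29%) and 5 as lower (16.1%), with a median of -0.23. The stress-induced ligand GDF15 rose from 6.28, 2.70 and 1.47 CPM to 15.03, 7.74 and 5.80 CPM and the BMP target ID4 from 13.9, 13.5 and 10.2 CPM to 29.6, 27.0 and 21.5 CPM. TGFBR2, a receptor chain for TGF-beta, fell from 60.2, 64.4 and 94.7 CPM to 24.4, 40.9 and 58.4 CPM (log2 fold change -0.88 ± 0.13), and the ligand gene TGFB2 fell from 36.7, 66.5 and 119 CPM to 12.9, 41.1 and 76.9 CPM. Of 15 integrin genes, 5 passed as higher and 2 as lower; ITGA3 rose by 1.29 and ITGA8 by 1.49, while ITGA7 fell.

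Many transcripts of dividing cells rose. Among all genes tested 10.7% passed as higher and 8.57% as lower. Of 55 genes of G2 and mitosis, 44 passed as higher, 34 of them called, and none as lower (median 1.27); of 40 S phase genes, 23 passed as higher, 19 of them called, and none as lower (median 1.03). TOP2A, the topoisomerase of mitotic chromosomes, rose from 24.9, 13.6 and 7.60 CPM to 90.9, 60.1 and 31.8 CPM (log2 fold change 2.02 ± 0.10; adjusted p = 2.81e-05). MKI67, the classic proliferation marker, rose from 23.7, 17.6 and 8.48 CPM to 92.2, 51.4 and 23.2 CPM (log2 fold change 1.68 ± 0.12; adjusted p = 0.000166), and the highest passage 5 value lay just above the lowest of passage 8. CCNA2, a cyclin of S phase and G2, rose from 5.24, 3.88 and 2.12 CPM to 25.2, 15.5 and 7.30 CPM, and CDC6, which licenses replication origins, from 0.901, 0.784 and 0.501 CPM to 6.68, 2.38 and 2.36 CPM. UHRF1, which maintains DNA methylation at replication, rose from 6.51, 5.05 and 3.12 CPM to 36.0, 14.1 and 7.73 CPM. At both passages donor 4 had the highest level of TOP2A and donor 8 the lowest. In thinned FAPs the share with a TOP2A UMI was 3.27%, 3.16% and 2.31% at passage 5 and 15.8%, 13.1% and 5.57% at passage 8. SCs of the SC cultures gave 7.70% and then 7.02% (57 cells at passage 8). Of 8 genes of the cyclin D axis 4 passed as higher; CCND1, the D-type cyclin that starts the cycle, rose from 170.5, 172 and 92.1 CPM to 378, 304 and 224 CPM (log2 fold change 1.08 ± 0.10). When only cells called G1 were summed, 14 genes of G2 and mitosis and 7 of S phase passed as higher. In that fit 197 genes in all were called higher, which also needs the size limit, and the share of all genes that passed was not counted. The phase calls were made from expression in the same cells, so these counts cannot test these genes apart from phase.

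The deposited phase calls gave another picture than these genes. The share of FAPs called S or G2M was 18.8%, 23.3% and 20.2% at passage 5 and 49.4%, 29.9% and 12.6% at passage 8 in donors 4, 7 and 8. It was higher at passage 8 in 2 of 3 donors and lower in donor 8, with a mean difference of 9.85 percentage points ± 19.3 (SD, n = 3; exact sign-flip test, 2-sided p = 0.75, where 0.25 is the smallest p that 3 donors allow). Without donor 4 the mean difference was -0.50. In cells thinned to 5000 UMIs, the share with at least 5 UMIs of the G2 and mitosis list was 23.8%, 23.6% and 24.5% at passage 5 and 60.5%, 44.2% and 36.7% at passage 8. For the S phase list the shares were 9.59%, 7.69% and 6.17% and then 39.2%, 23.7% and 12.5%. Both measures were higher in 3 of 3 donors (exact sign-flip p = 0.25 each, 0.42 after adjustment over 10 measures). Thinning left out 0, 2 and 10 cells at passage 5 and 23, 18 and 5 cells at passage 8, and between 44 and 70 cells of a donor at passage 8 lay within 1 UMI of the limit. Without thinning, 91.7% to 95.3% of cells had 5 UMIs of the G2 and mitosis list at passage 5 and 91.9% to 93.7% at passage 8, and these unthinned ranges overlapped. At passage 2 the phase calls gave 50.7%, 24.3% and 7.81%, and in the thinned cells of that passage the G2 and mitosis share was 63.0%, 47.7% and 38.8%. At passages 2 and 8 donor 4 came first, donor 7 next and donor 8 last in each of these shares.

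**Figure D2:**
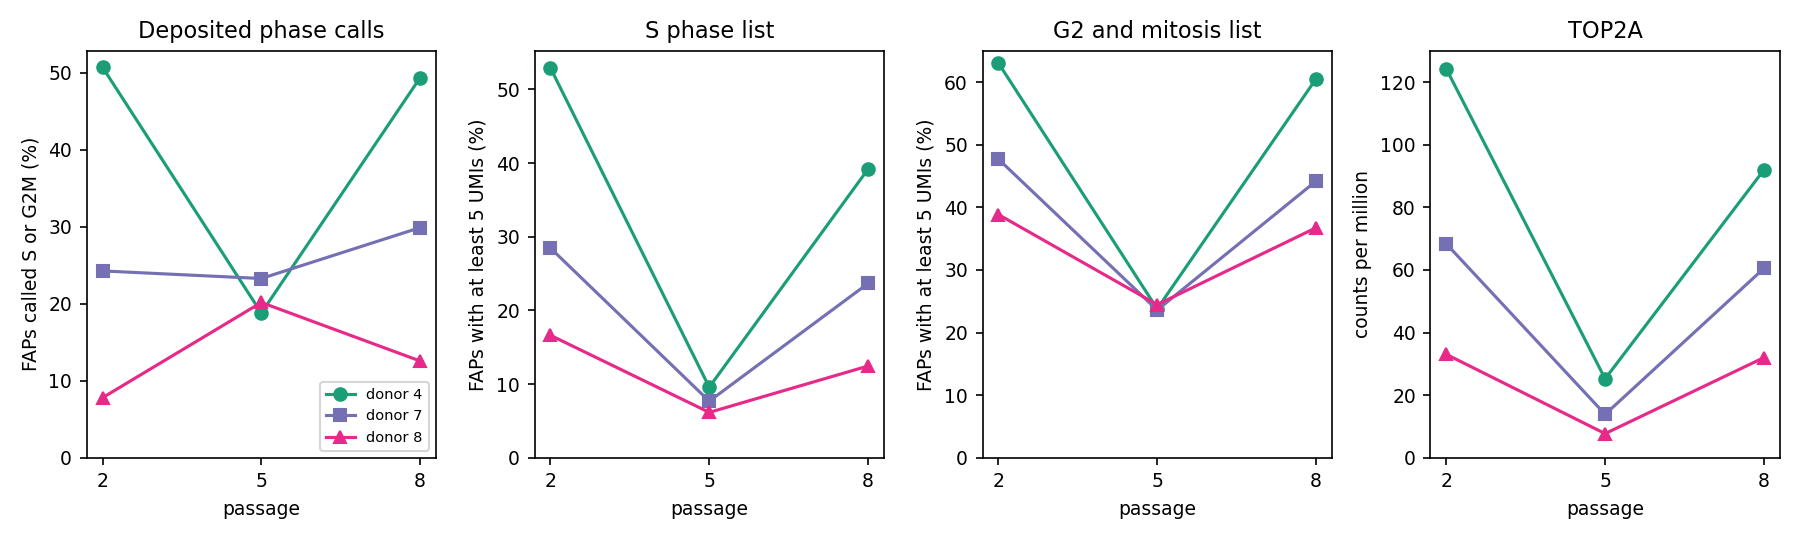
Cell cycle measures in FAPs of the 3 donors at passages 2, 5 and 8, from left to right the percent of cells called S or G2M, the percent of cells thinned to 5000 UMIs with at least 5 UMIs of the S phase list, the same for the G2 and mitosis list, and TOP2A in CPM. The 3 right panels dip at passage 5 in every donor, whereas the phase calls of donor 8 were highest there, at 20.2%.

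Genes that halt the cycle showed no common direction. Of 25 cell cycle inhibitors and p53 targets, 4 passed as higher (16%) and 3 as lower (12%), with a median of 0.04. These shares are near the 10.7% and 8.57% of all genes tested. CDKN1A, the p21 inhibitor induced by p53, stood at 198, 133 and 156 CPM and then at 164, 165 and 199.7 CPM (log2 fold change 0.13 ± 0.13, adjusted p = 0.518), lower in donor 4 and higher in the other donors. The stress genes GADD45B and GADD45A passed as higher, at log2 changes of 1.07 and 0.74. CDKN2C, an inhibitor of the cyclin D kinases, passed as lower, from 36.4, 42.4 and 48.7 CPM to 16.6, 20.4 and 35.0 CPM, as did CDKN1B at -0.43, which missed the threshold under 8 of 14 alternative settings. Of 14 lamin and chromatin genes used to score senescence, 9 passed as higher and 1 as lower; LMNB1, which is lost in senescent cells, rose from 12.3, 12.9 and 9.99 CPM to 32.5, 18.9 and 13.7 CPM. LMNB1 missed the threshold under 4 of 14 alternative settings, among them G1 cells alone and leaving out donor 7.

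Secreted factors known from senescent cells moved both ways, 14 of 37 as higher (8 called) and 8 as lower (2 called), with a median of 0.30. That is 37.8% and 21.6%, against 10.7% and 8.57% of all genes tested. CSF2, the granulocyte-macrophage growth factor, rose from 1.97, 1.09 and 0.501 CPM to 18.7, 5.75 and 3.65 CPM (log2 fold change 2.92 ± 0.25). The cytokine IL1A rose from 0.768, 0.261 and 0.154 CPM to 1.82, 2.18 and 1.29 CPM and the EGF receptor ligand AREG from 0.467, 0.261 and 0.347 CPM to 1.97, 1.39 and 1.29 CPM, both at low levels. MMP9, a gelatinase, went from 0.167, 0.741 and 0.116 CPM to 5.16, 2.78 and 4.51 CPM, and TIMP3, an inhibitor of matrix proteases, from 109.5, 55.5 and 46.4 CPM to 456, 220.4 and 154 CPM (log2 fold change 1.93 ± 0.09; adjusted p = 2.15e-05). ADAMTS1 and ADAMTS4, proteases that cut proteoglycans, fell from 109, 164 and 113 CPM and 29.0, 35.2 and 34.5 CPM to 39.0, 81.3 and 44.2 CPM and 9.26, 16.7 and 14.8 CPM. Of 22 growth factor and cytokine receptors tested, 1 passed as higher and 3 as lower; FLT1, a receptor of the VEGF family, rose by 1.42, and TGFBR2, IL1R1 and IGF2R fell, IL1R1 missing the threshold under 8 of 14 alternative settings. For CCL26 the share of thinned FAPs with a UMI was 20.5%, 10.9% and 8.83% at passage 5 and 71.1%, 52.3% and 43.6% at passage 8. In SCs of the SC cultures, given as the background share, 1.00% of 2999 thinned cells had a CCL26 UMI at passage 5 and 28.1% of 57 at passage 8. At passage 8 the interval of donor 8 (38.1% to 49.2%, Wilson) overlapped that of SCs (18.1% to 40.8%). The intervals of the other donors lay above those of SCs in their own library. Overlapping intervals are no test and 57 SCs give a wide interval, so this comparison cannot decide for donor 8. Its own share at passage 5 had an interval of 7.47% to 10.4%. The part of free RNA in the rise was not tested.

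Early response genes, which are transcribed within minutes of a stimulus or of cell handling, passed as higher for 10 of 22 tested and as lower for 1 (median 0.46). These are 45.5% and 4.55%, against 10.7% and 8.57% of all genes tested. FOS went from 20.5, 26.8 and 17.1 CPM to 66.2, 115 and 104 CPM (log2 fold change 2.13 ± 0.17; adjusted p = 0.00158) and the nuclear receptor NR4A1 from 2.70, 3.62 and 2.08 CPM to 16.6, 16.7 and 10.5 CPM (log2 fold change 2.39 ± 0.17; adjusted p = 0.00014). FOSB was below 1 CPM at passage 5, at 0.534, 0.697 and 0.193 CPM, and reached 3.19, 3.77 and 2.36 CPM. DUSP1, a phosphatase that shuts off MAP kinases, rose from 123, 133 and 97.4 CPM to 259, 271 and 228 CPM. For all 4 genes, picked as the largest passed changes of the list, the passages did not overlap. Passage 8 lay higher without overlap for 1657 of all 11270 genes tested (14.7%). In thinned FAPs the share with a FOS UMI was 9.52%, 12.5% and 7.57% at passage 5 and 21.65%, 32.2% and 37.4% at passage 8. SCs of the SC cultures gave 6.30% and then 7.02% (57 cells at passage 8). Whether the cells of the 2 harvests were handled alike was not tested.

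FAP identity genes gave a mixed result. Of 23 tested, 1 passed as higher (4.35%) and 4 as lower (17.4%), with a median of -0.13. Over all genes the shares were 10.7% and 8.57%. LUM, the collagen-binding proteoglycan lumican, fell from 4713, 4911 and 5053 CPM to 1964, 3182 and 3458 CPM (log2 fold change -0.81 ± 0.16; adjusted p = 0.0365). FBLN2, a basement membrane glycoprotein, fell from 706, 780.3 and 704 CPM to 424, 585 and 529.9 CPM, and CD55, a complement inhibitor on the cell surface, from 46.4, 97.7 and 86.8 CPM to 31.9, 61.7 and 78.4 CPM. MFAP5, a microfibril protein of a universal fibroblast subset, rose from 72.7, 153 and 104 CPM to 119, 394 and 395 CPM (log2 fold change 1.34 ± 0.26; adjusted p = 0.0439). Without donor 7, and in the fit without pairing by donor, LUM, FBLN2, CD55 and MFAP5 did not pass. Their log2 fold changes were -0.92, -0.58, -0.35 and 1.31 without donor 7 and -0.77, -0.51, -0.43 and 1.46 without pairing. In the paired fit of all donors they were -0.81, -0.52, -0.45 and 1.34. LUM also did not pass with no filter on low counts (edgeR adjusted p = 0.081) or in cells with at least 10000 UMIs (0.0532). CD55 also missed the threshold with DESeq2 (adjusted p = 0.0539), with scaling by total UMIs (edgeR, 0.0606) and with the spread shared over 9 donors (0.257). MFAP5 also did not pass with no filter on low counts (edgeR adjusted p = 0.147), in G1 cells alone (0.0623), in cells with at least 10000 UMIs (0.101), with the spread shared over 9 donors (0.0747) or in the fit of 3 passages (0.074). PDGFRA, the receptor that defines FAPs, stood at 458, 578 and 662 CPM and then at 116, 302 and 585 CPM, a log2 difference of -1.02 ± 0.46 that did not pass (adjusted p = 0.264). All 3 donors were lower, donor 4 by far the most and donor 8 the least. In thinned cells the share with a PDGFRA UMI was 81.3%, 84.7% and 90.8% at passage 5 and 44.7%, 64.7% and 81.6% at passage 8, against 13.1% and 10.5% of SCs in SC cultures. For MFAP5 the FAP shares were 23.5%, 38.6% and 31.7% and then 37.5%, 72.1% and 69.5%. The MFAP5 share of SCs in SC cultures also rose, from 8.54% to 47.4% of 57 cells (95% Wilson interval 35.0% to 60.1%). The part of free RNA in the rise of MFAP5 was not tested. DCN, the proteoglycan decorin, was at 11870, 13810 and 15100 CPM and 5259, 11690 and 15370 CPM and did not pass (adjusted p = 0.421); it was lower in donors 4 and 7 and barely higher in donor 8. ITGA5, the surface marker used to sort FAPs, did not pass either (adjusted p = 0.202), at 104, 102 and 85.5 CPM and then 183, 114 and 86.3 CPM. ITGA7, the integrin used in the sort to tell SCs apart, was low throughout and fell from 5.17, 5.93 and 5.24 CPM to 1.37, 2.38 and 2.15 CPM (log2 fold change -1.502 ± 0.25). The change of ITGA7 did not pass without donor 7 (log2 fold change -1.62, edgeR adjusted p = 0.0836) or without the pairing (-1.49, adjusted p = 0.0533). CD163, a scavenger receptor of macrophages, rested on 5 to 20 UMIs per sum and rose from 0.367, 0.479 and 0.771 CPM to 1.37, 0.992 and 2.79 CPM (log2 fold change 1.66 ± 0.39, edgeR adjusted p = 0.0196). It did not pass with DESeq2 (adjusted p = 0.0819), without donor 7 (edgeR, 0.108), without donor 8 (0.0911) or without the pairing (0.116). In these fits its log2 fold change was 1.64, 1.84, 1.51 and 1.63. Of 27 adipogenic and lipid handling genes, 3 passed as higher and 3 as lower; ZNF423, a regulator of preadipocytes, fell from 9.25, 16.2 and 22.4 CPM to 3.04, 9.32 and 15.2 CPM.

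Matrix genes leaned lower. The shares of all genes tested that passed were 8.57% as lower and 10.7% as higher. Of 37 interstitial collagen and processing genes, 10 passed as lower and 1 as higher (median -0.31); of 16 basement membrane genes, 6 passed as lower and none as higher (median -0.39); of 51 glycoproteins, elastic fibre genes and proteoglycans, 11 passed as lower and 6 as higher (median -0.33). The interstitial list summed to 48940, 66050 and 63880 CPM at passage 5 and to 20590, 45210 and 44470 CPM at passage 8, again with the largest drop in donor 4. COL6A3, a chain of the microfibrillar collagen, fell from 53.05, 47.7 and 45.0 CPM to 30.1, 27.6 and 23.6 CPM (log2 fold change -0.84 ± 0.09), and PLOD1, which hydroxylates collagen lysines, from 116, 102 and 119 CPM to 61.5, 74.8 and 70.8 CPM. COL4A1 and HSPG2 of the basement membrane fell by 0.47 and 0.51 on the log2 scale, HSPG2 missing the threshold under 8 of 14 alternative settings. HAS2, which makes hyaluronan, fell from 30.6, 20.6 and 24.7 CPM to 9.26, 11.7 and 14.6 CPM (log2 fold change -1.11 ± 0.20), and the fibrillin gene FBN2 from 8.91, 31.1 and 23.2 CPM to 1.82, 12.9 and 13.7 CPM. With scaling by total UMIs, the numbers lower were 8, 4 and 9 in the 3 lists.

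**Figure D3:**
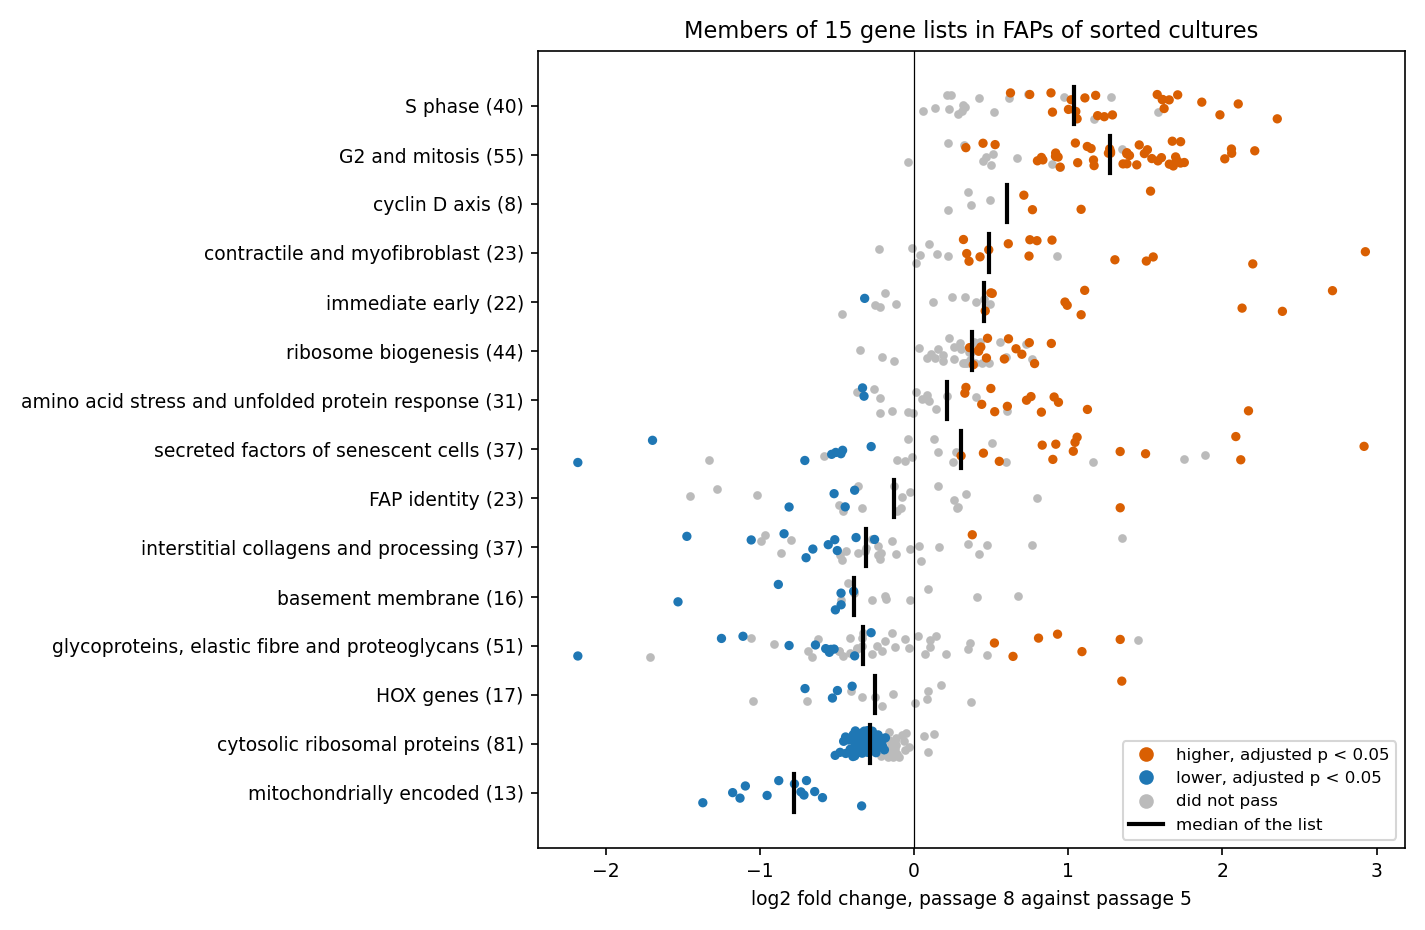
Log2 fold changes of the members of 15 gene lists, with the number tested in brackets, 1 dot per gene, coloured where the adjusted p was below 0.05, and a black bar at the list median. The medians ran from 1.27 for G2 and mitosis down to -0.78 for the mitochondrially encoded genes; vertical scatter within a row carries no value.

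All 13 mitochondrially encoded genes passed as lower (median -0.78). ND3, a subunit of complex I, fell from 2270, 2327 and 2117 CPM to 858, 914 and 826 CPM (log2 fold change -1.37 ± 0.06; adjusted p = 2.04e-05), ND1 from 3422, 3658 and 3130 CPM to 1456, 1579 and 1474 CPM, and ATP6, of the ATP synthase, from 2608, 2726 and 2464 CPM to 1199, 1241 and 1209 CPM. Mitochondrial UMIs made up 3.76%, 3.80% and 3.35% of the total at passage 5 and 2.40%, 2.34% and 2.11% at passage 8. This share also moves with RNA quality, whose part in the result was not tested. All 13 genes passed as lower also in FAPs of the unsorted and of the SC cultures, with medians of -1.19 and -1.14, where 5.1% and 1.15% of all genes passed as lower. By the test of the difference, the fall was smaller in sorted FAP cultures for 2 of the 13 against unsorted cultures and 3 against SC cultures. That difference passed as higher for 0.126% and 3.48% of all genes. Among 81 nuclear genes of oxidative phosphorylation, 14 passed as higher (17.3%) and 4 as lower (4.94%), and 63 did not pass (median 0.12). Over all genes tested 10.7% passed as higher and 8.57% as lower. With scaling by total UMIs, which moved all changes up by 0.11, 33 of the 81 passed as higher. Under that scaling 443 genes in all were called higher, against 344 with TMM. Calls also need the size limit, and the share of all genes that passed under that scaling was not counted. The 33 genes therefore have no share over all genes to be set against. Of 81 cytosolic ribosomal proteins, 57 passed as lower and none as higher, by small steps (median -0.29, lowest -0.51). RPS3A fell from 4058, 4477 and 4384 CPM to 2797, 3123 and 3143 CPM, and EEF1A1, the elongation factor that brings tRNA to the ribosome, from 4508, 4940 and 5176 CPM to 3192, 3298 and 3492 CPM (log2 fold change -0.55 ± 0.06). The list as a whole took 246100, 261000 and 259800 CPM at passage 5 and 207400, 214200 and 212500 CPM at passage 8. With scaling by total UMIs 20 of the 81 passed as lower. Of 44 genes that build ribosomes, 14 passed as higher and none as lower, none was called, and 30 did not pass (median 0.38); NPM1, the nucleolar chaperone nucleophosmin, rose from 95.5, 93.8 and 89.5 CPM to 203, 136 and 123 CPM. Of 79 translation factors and tRNA synthetases 6 passed as higher and 12 as lower. The matching of names let EEF1AKMT3, a methyltransferase, the kinase EIF2AK2 and the repressor EIF4EBP1 into that list; EEF1AKMT3 fell from 21.8, 18.5 and 22.02 CPM to 7.44, 8.33 and 8.59 CPM.

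Lists of stress, metabolism and signalling were mixed. Over all genes tested 10.7% passed as higher and 8.57% as lower, and several counts below lie near these shares. Of 31 genes of amino acid stress and the unfolded protein response, 13 passed as higher and 2 as lower (median 0.21); CHAC1, a glutathione-degrading target of the amino acid response, rose from 4.04, 1.87 and 0.347 CPM to 12.1, 7.93 and 5.58 CPM and MANF, a chaperone of the endoplasmic reticulum, from 168, 176 and 139 CPM to 365, 324 and 242 CPM. Of 30 glycolysis and hypoxia genes 5 passed as higher and 2 as lower, with PFKP, a phosphofructokinase, up by 0.70. Of 31 redox genes 6 passed as higher (19.4%) and 3 as lower (9.68%), and of 32 interferon genes 5 (15.6%) and 2 (6.25%). Of 32 genes of cholesterol and fatty acid synthesis 1 passed as higher (3.12%) and 2 as lower (6.25%). Of 49 proteasome and autophagy genes 8 passed as higher and none as lower (median 0.10). Of 24 Wnt and Notch genes 6 passed as higher and 3 as lower; the Notch target HES1 rose from 7.24, 9.19 and 2.70 CPM to 21.4, 26.2 and 6.66 CPM. Of 17 HOX genes, which keep the memory of body position, 4 passed as lower and 1 as higher, with HOXC8 falling from 24.8, 31.5 and 26.6 CPM to 14.7, 19.6 and 16.5 CPM and HOXB7, near 1 CPM, rising by 1.35 but missing the threshold under 8 of 13 alternative settings. Growth factor genes, including those of the IGF axis, passed as higher for 7 of 31 and as lower for 7.

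FAPs of the same 3 cultures at passage 2 (2532 cells) gave an earlier point of reference. In 1 fit over the 3 passages, made after the levels at passage 2 had been seen, 258 of 12014 genes were called higher and 483 lower at passage 5 against 2 (2.15% and 4.02%, together 6.17%), 136 higher and 58 lower at passage 8 against 2 (1.13% and 0.483%, together 1.61%), and 344 higher and 131 lower at passage 8 against 5 (2.86% and 1.09%, together 3.95%). These contrasts share libraries, so the values stand side by side and their likeness is no test. For several genes the passage 8 level was close to that of passage 2. CYP27B1 stood at 6.40, 3.77 and 3.12 CPM at passage 2, TOP2A at 124, 68.3 and 33.0 CPM, FOS at 50.7, 83.0 and 80.6 CPM and LUM at 2337, 2971 and 3705 CPM in donors 4, 7 and 8. The G2 and mitosis list had a median change of -1.42 from passage 2 to 5 and of -0.22 from passage 2 to 8; for contractile genes these were -0.36 and 0.16, and for cytosolic ribosomal proteins 0.19 and -0.07.

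For other genes the passage 8 level lay away from that of passage 2, though not every such difference passed. CCL26 was at 43.1, 64.2 and 45.6 CPM at passage 2, and its log2 difference of 2.57 from passage 2 to 8 did not pass (edgeR adjusted p = 0.0688). WFDC2, at 0.252, 0 and 0.383 CPM at passage 2, had risen already by passage 5. IL36A (1.80, 1.33 and 0.383 CPM) and CAVIN2 (3.06, 1.67 and 2.41 CPM) were also below their passage 8 levels at passage 2, with log2 changes of 3.17 and 2.85. So was the activin chain gene INHBB, at 0.971, 0.6 and 0.93 CPM and then 4.30, 7.39 and 6.92 CPM. CNN1 was at 57.5, 25.3 and 17.2 CPM at passage 2 and 1.08 higher on the log2 scale at passage 8. In the other direction COL5A3 (73.7, 68.3 and 115 CPM at passage 2), ITGA7 (5.65, 6.51 and 5.64 CPM) and COL18A1 (5.79, 4.11 and 7.66 CPM), a basement membrane collagen, did not pass from passage 2 to 5 and fell from passage 2 to 8, by 1.46, 1.60 and 1.70 on the log2 scale. The mitochondrially encoded genes were 0.50 higher at passage 5 than at passage 2 and 0.40 lower at passage 8 than at passage 2, as list medians.

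**Figure D4:**
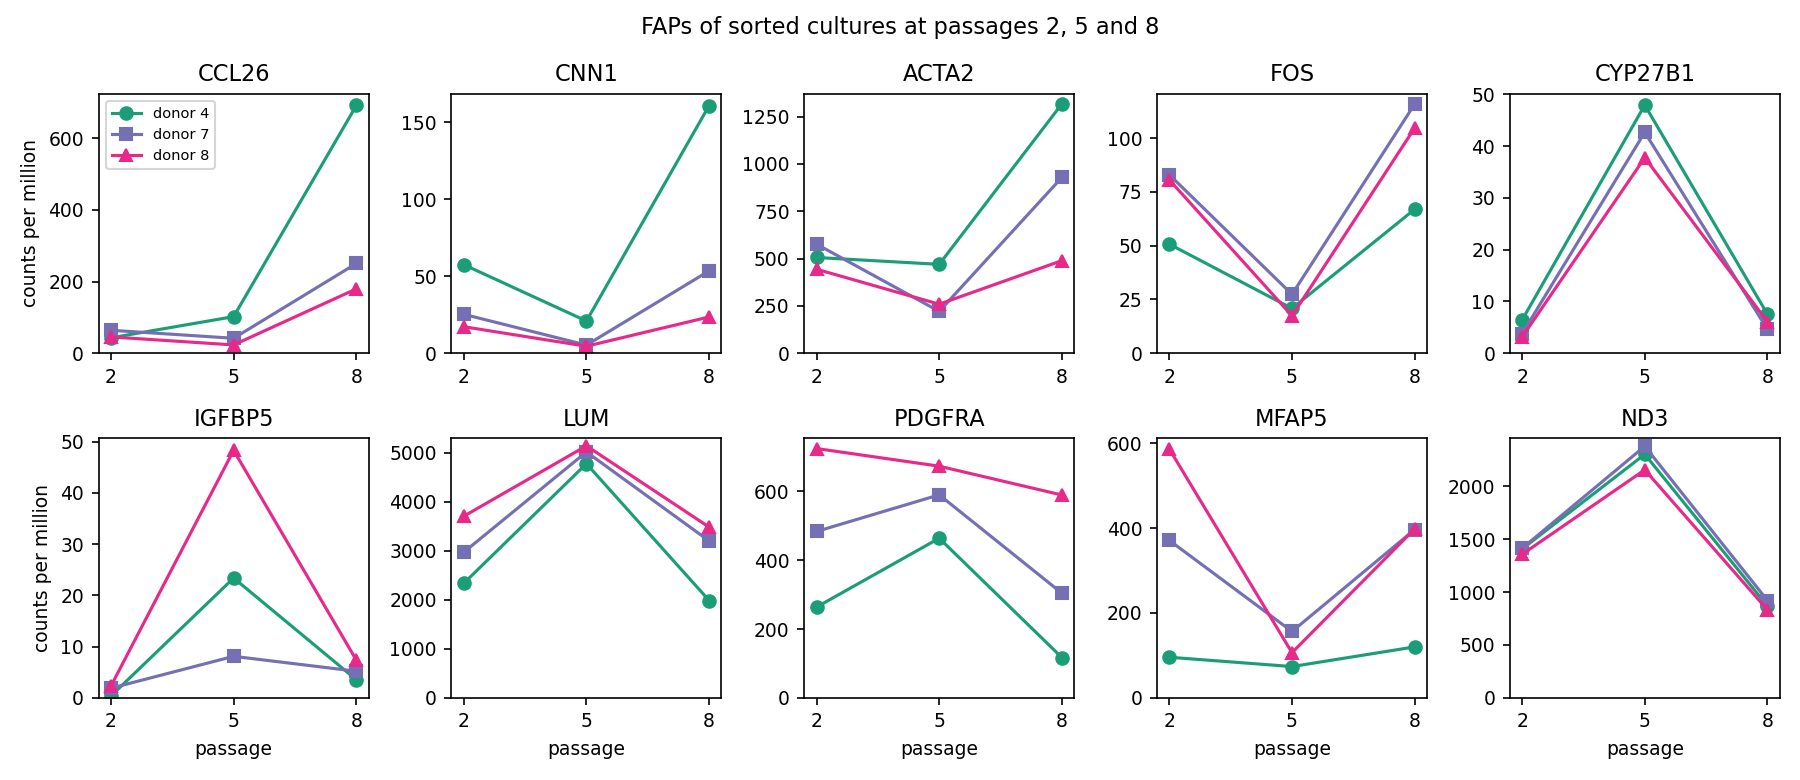
CPM of 10 genes in FAPs of donors 4, 7 and 8 at passages 2, 5 and 8, with a linear axis from 0 for each gene. CYP27B1 peaks at passage 5 at 37.8 to 47.9 CPM in all donors, FOS dips there, and CCL26 is highest at passage 8, at 180 to 692 CPM; the CPM of this plot were scaled over 9 sums and differ slightly from those of the 6 sums.

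FAPs of the unsorted and SC cultures were sampled in the same 2 libraries. In 1 fit over 9 donors and 11107 genes, the passage change itself was called higher and lower for 330 and 112 genes in sorted FAP cultures (2.97% and 1.01%), 134 and 66 in unsorted cultures (1.21% and 0.594%) and 73 and 40 in SC cultures (0.657% and 0.36%). The passage change was called higher in sorted FAP cultures than in unsorted cultures for 12 genes (0.108%) and lower for 2 (0.018%). Without donor 7 or without donor 8 no gene was called in either direction, and without donor 4 the numbers were 7 and 0. CYP27B1 fell by 2.81 ± 0.28 in sorted FAP cultures, while its change in unsorted cultures was -0.25 ± 0.28, from 8.53, 9.48 and 28.2 CPM to 7.12, 13.6 and 15.7 CPM, a difference of -2.56 ± 0.40 (edgeR adjusted p = 0.0454). ID1, a BMP target, fell in unsorted cultures from 16.8, 35.2 and 24.3 CPM to 3.07, 9.04 and 4.50 CPM, and its change in sorted FAP cultures was -0.36 ± 0.21 (difference 1.91 ± 0.31). SLAMF9, a membrane receptor, rose in sorted FAP cultures from 5.35, 4.91 and 1.71 CPM to 17.9, 20.4 and 6.38 CPM and lay between 15.2 and 39.8 CPM in unsorted cultures (difference 1.64 ± 0.27). TNFAIP6, a hyaluronan-binding protein of inflammation, fell from 13.6, 14.7 and 9.33 CPM to 4.17, 6.12 and 4.40 CPM in sorted FAP cultures, the difference being -1.64 ± 0.28. PRSS2, a trypsinogen, was at 0.55 to 0.77 CPM in sorted FAP cultures at passage 5 and at 2.31 to 5.31 CPM at passage 8, far under the 35.5 to 59.7 CPM of unsorted cultures. In that fit 1051 of all genes (9.46%) passed as higher and 901 (8.11%) as lower in sorted FAP cultures, and 539 (4.85%) and 566 (5.1%) in unsorted cultures. The G2 and mitosis median was 1.26 in sorted FAP cultures and 1.01 in unsorted cultures, with 43 and 31 of 55 genes passing as higher. For S phase the medians were 1.02 and 0.48, with 25 and 3 of 40 passing as higher. The 23 early response genes had medians of 0.46 and -0.06, with 11 higher and none lower against 4 higher and 3 lower. The 8 genes of the cyclin D axis had medians of 0.59 and -0.01, with 4 and 1 passing as higher, and the 23 contractile genes 0.48 and 0.25, with 15 and 4. The cytosolic ribosomal medians were -0.29 and -0.27, with 60 and 59 of 81 passing as lower. The difference between the cultures itself passed for 1 gene of these 6 lists, an early response gene, against 14 of all genes higher (0.126%) and 4 lower (0.036%).

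Against FAPs of the SC cultures the difference was called higher for 243 genes (2.19%) and lower for 59 (0.531%); without donor 4 these were 87 and 19, and without donor 7 they were 110 and 28. Many cell cycle genes differed. Without the size limit, the difference passed as higher for 42 of 55 genes of G2 and mitosis and 26 of 40 of S phase, against 386 of all 11107 genes (3.48%). The medians of the passage change of these lists were 1.26 and 1.02 in sorted FAP cultures and -0.65 and -0.75 in SC cultures. CLSPN, a checkpoint adaptor of replication, rose in sorted FAP cultures from 1.87, 2.07 and 1.59 CPM to 14.2, 6.33 and 3.96 CPM, and was at 15.3, 35.0 and 22.5 CPM and then 7.94, 15.6 and 10.6 CPM in SC cultures (difference 3.16 ± 0.52, edgeR adjusted p = 0.00868). WNT5B, a non-canonical Wnt ligand, rose in the former and fell in the latter, from 14.3, 12.01 and 23.3 CPM to 7.08, 2.03 and 7.05 CPM (difference 3.48 ± 0.42). For CYP27B1 the difference was -3.40 ± 0.50, its level in SC cultures being 2.00 to 4.58 CPM at passage 5 and 4.08 to 13.4 CPM at passage 8. PTGS1, the constitutive cyclooxygenase, and the histone gene H3C3 gave differences of -4.47 ± 0.97 and 3.55 ± 0.85, and in SC cultures PTGS1 had no UMI in 2 of 3 donors at passage 5, so its fitted difference depends on the fit's handling of zeros. Cytosolic ribosomal proteins differed too, 62 of 81 passing as lower in sorted FAP cultures against 274 of all genes (2.47%), with a median change of 0.09 in SC cultures. The FAPs of SC cultures numbered 31 and 70 in donors 6 and 10 at passage 5, and the cultures also differed in coating (laminin-521 for SCs, fibronectin for unsorted cells) and in donors, so culture type, coating and donor cannot be told apart.

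**Figure D5:**
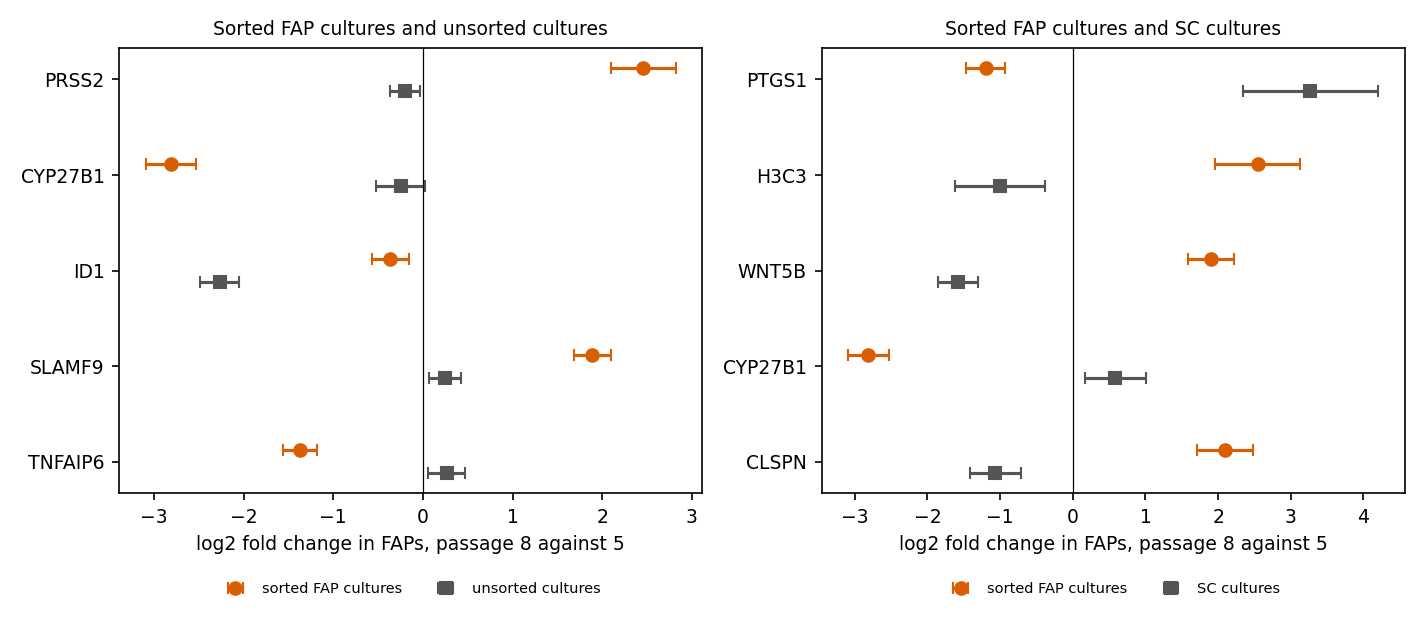
Log2 fold change from passage 5 to 8 with its SE in FAPs of sorted FAP cultures (orange) and of unsorted cultures (left, grey) or SC cultures (right, grey), 3 donors each, for the 5 genes with the largest called difference among those that averaged at least 10 CPM in either culture at either passage. CYP27B1, at -2.81 in sorted FAP cultures, lies far from both other cultures, at -0.25 and 0.59.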

How the data were processed

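The authors pooled cells of all donors at each passage into 1 droplet 3′ library and assigned cells to donors by genotype with demuxlet. For passages 2 and 5 the series lists a further sample, which was not used here. All 36129 cells of the deposited table are barcodes called single; doublets within a donor were not removed here, and no other caller was run. The deposited counts are raw UMI counts per gene and cell, and the submitters' processing notes name Cell Ranger 6.0.1 and ARS-UCD1.2. Cell type and phase were taken from the deposited cell table, of which 10 columns were not used. Counts of FAPs were summed per donor and passage and tested with edgeR 4.0.16 (quasi-likelihood, filterByExpr, TMM, donor as a block, since the same animals' cultures were sampled at both passages), with Benjamini-Hochberg adjustment. DESeq2 1.42.0 was an alternative. The paired fit had 2 residual degrees of freedom. Culture types were compared by an interaction term in 1 fit over 9 donors. Donors are separate animals, each with 1 culture. Shares of cells came from cells thinned to 5000 UMIs; their counting intervals cover counting error only. Of 21880 genes 16828 had a symbol, and 68 symbols shared by several genes were left unnamed. Genes selected for naming were the 12 largest called changes each way that averaged at least 10 CPM, up to 4 per list for 40 lists, and the FAP markers. Added to these were the 5 largest called differences from each other culture with the same 10 CPM minimum. Counts of named genes cover those selected from the comparison of passages, and not all of them appear in the text. METTL1, MARCHF9, TSFM, CDK4 and TSPAN31 were chosen after their values were seen. The members and lists were chosen with earlier results of these data known. Scripts were tested on simulated data.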

Additional observations from a re-analysis of the deposited data

Results flagged for a closer look

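The passage change differed between cultures for 10 results by the interaction test of edgeR across all genes, given here as sorted FAP cultures minus the other culture on the log2 scale. Against unsorted cultures the difference was 2.66 for PRSS2, -2.56 for CYP27B1, 1.91 for ID1, 1.64 for SLAMF9 and -1.64 for TNFAIP6. All 5 missed the threshold when donor 4, 7 or 8 was left out, with adjusted p between 0.0849 and 0.265. Against SC cultures it was -4.47 for PTGS1, 3.55 for H3C3, 3.48 for WNT5B, -3.40 for CYP27B1 and 3.16 for CLSPN. Without donor 4 the adjusted p of PTGS1 was 0.0503 and that of H3C3 was 0.19, and without donor 7 that of H3C3 was 0.135. WNT5B, CYP27B1 and CLSPN passed against SC cultures without each of donors 4, 7 and 8.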

How the results depend on the processing

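Leaving out 1 donor in turn gave 85 to 377 genes called higher and 19 to 181 called lower at passage 8, the lowest without donor 7, where 37 of the 147 named genes that had passed still did. Without the pairing by donor (no replicate block), 24 and 13 genes were called, and 17 of the 147 named genes that had passed still did. With only G1 cells 197 genes were called higher. The other settings for this comparison (DESeq2, other scalings, no filter, thinned sums, all cell types, cells with at least 10000 UMIs, shared spread and the fit over 3 passages) gave 265 to 443 higher and 84 to 142 lower, and no named gene changed direction. Of the named genes that had passed, 23 missed the threshold with DESeq2, 26 with the spread shared over 9 donors, and 0 to 22 under the other settings than these, leaving out donor 7 and leaving out the pairing. For the difference from unsorted cultures, 22 and 4 genes were called with no filter on low counts and 6 and 0 with sums thinned to the smallest total, and leaving out a donor gave 0 to 7 higher and 0 to 0 lower. For the difference from SC cultures, thinning gave 111 and 32, and leaving out a donor gave 87 to 267 higher and 19 to 78 lower. The mean change of the share in S or G2M ran from -0.50 (without donor 4) to 18.6 percentage points (without donor 8). The cause of these shifts was not tested. Depth limits passage 8, where a donor had at most 6132833 UMIs.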

Other observations

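Genes beside CYP27B1 were looked at after its fall had been seen. In the RefSeq order of ARS-UCD2.0 the neighbours run AVIL, TSFM, EEF1AKMT3, METTL1, CYP27B1, MARCHF9, CDK4 and TSPAN31. AVIL, TSFM, EEF1AKMT3 and CYP27B1 fell from passage 5 to 8, by 1.46, 0.80, 1.36 and 2.80 on the log2 scale. TSFM, a mitochondrial elongation factor, went from 159, 154 and 182 CPM to 84.1, 91.1 and 111 CPM in donors 4, 7 and 8 (edgeR adjusted p = 0.000746). METTL1, between them, was at 9.01, 9.89 and 11.4 CPM and then 12.5, 11.1 and 8.37 CPM and did not pass (edgeR adjusted p = 0.759), nor did MARCHF9 (edgeR adjusted p = 0.261), CDK4 or TSPAN31. From passage 2 to 5 the log2 differences of AVIL, TSFM, EEF1AKMT3 and CYP27B1 were 1.2, 0.96, 1.17 and 3.28. Whether the 4 genes share reads or overlap was not tested.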
